A study of Mus musculus with 17 samples.

Results

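The genes described here are 9 transcripts of the protein kinase A (PKA) system: the regulatory subunits Prkar1a, Prkar1b, Prkar2a and Prkar2b, the catalytic subunits Prkaca and Prkacb, the anchoring protein Akap12, and the transcription factors Creb1 and Crem. They were taken by gene symbol from a count table of 25198 rows, and all 9 were found. Each library came from triplicate antral follicles of CD1 mice aged 16 days, grown for 8 days in eIVFG, an encapsulated in vitro follicle growth system. The Tyrphostin group (6 libraries) received hCG, the gonadotropin used to trigger ovulation in culture, together with 10 µM Tyrphostin-AG1478, an inhibitor of the EGF receptor kinase, in DMSO for 4 h. The Control group (11 libraries) carries the same treatment text in the labels, so whether Control follicles received hCG and DMSO is not stated. The labels name 2 batches: batch 1 has 6 Control and 3 Tyrphostin libraries, and batch 2 has 5 Control and 3 Tyrphostin libraries. The column names sort the Control libraries further, into 5 numbered sets.

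PKA is the main effector of cyclic AMP. Regulatory subunits hold the catalytic subunits inactive until cyclic AMP binds the regulatory subunits and frees the catalytic ones, which then phosphorylate CREB and other proteins. In granulosa cells the receptors for FSH and LH both raise cyclic AMP, and Prkar2b, which encodes the regulatory subunit RII-beta, is a classical transcript induced by FSH in these cells. Akap12 (gravin) tethers PKA at the cell periphery. Creb1 encodes the CREB activator, and the Crem locus encodes activators as well as ICER, a short repressor made from an internal promoter. Counts per gene do not separate ICER from the other Crem products.

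Total counts ran from 1820545 to 8291024 in Control and from 3077632 to 7451417 in Tyrphostin libraries. Mitochondrial transcripts took 1.86% to 2.83% of counts in Control and 1.55% to 2.50% in Tyrphostin libraries of batch 1. In batch 2 they took 1.74% to 1.94% in Control 8 to 11, 0.175% in Control 7 and 0.781% to 1.32% in Tyrphostin libraries. Of the granulosa markers, Inha had a median of 44316 CPM (counts scaled to the TMM-adjusted library size) in Control and 42639 in Tyrphostin libraries, while Foxl2 had 26 and 51 counts in all and Amh 1 and 9. Summed oocyte markers ran from 28.0 to 183.7 CPM in Control and from 31.9 to 292 in Tyrphostin libraries. Summed theca and stroma markers ran from 237 to 2011 and from 240 to 2792, summed endothelial markers from 5.55 to 86.5 and from 6.90 to 30.9, and summed immune markers from 11.9 to 26.6 and from 12.3 to 36.1. Of these other cell type markers, 9 of 10 (oocyte), 7 of 9 (theca and stroma), 1 of 5 (endothelial) and 1 of 6 (immune) passed the filter on low counts. Of those, 0 had an edgeR adjusted p under 0.05 between the groups, and 1 (Zp2, oocyte) an unadjusted p under 0.05. Itgam was at 0 in every library. In bulk follicles, fewer cells of a type and less RNA per cell cannot be told apart.

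The genes whose promoters are shown are the pair that differed between the groups, Prkar2b and Prkar1b, and Prkar1a, the most abundant subunit transcript. RefSeq windows on GRCm38.p6, running from 250 bases before to 50 bases after an annotated start, were read for 7 of the 9 genes (20 windows). Akap12 had no window, and Crem was left out of the search, so the counts below do not cover them. They were searched on both strands for the full cyclic AMP response element TGACGTCA and for its core TGACG, which each full element holds once on each strand. Printed below, 5′ to 3′, are the 250 bases before 1 start of each gene, with matches in capitals: Prkar1a at chr11:109650699-109650948 (plus strand), Prkar1b at chr5:139150002-139150251 (minus strand) and Prkar2b at chr12:32061278-32061527 (minus strand).
Prkar1a: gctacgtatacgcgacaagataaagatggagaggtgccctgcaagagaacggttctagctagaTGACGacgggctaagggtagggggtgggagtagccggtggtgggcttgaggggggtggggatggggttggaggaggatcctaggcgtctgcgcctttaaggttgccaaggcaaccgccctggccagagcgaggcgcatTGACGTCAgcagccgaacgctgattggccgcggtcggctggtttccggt
Prkar1b: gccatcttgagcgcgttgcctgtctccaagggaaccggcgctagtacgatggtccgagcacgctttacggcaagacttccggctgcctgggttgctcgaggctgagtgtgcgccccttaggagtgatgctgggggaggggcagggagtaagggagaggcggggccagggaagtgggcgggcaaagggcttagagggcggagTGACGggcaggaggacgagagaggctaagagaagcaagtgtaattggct
Prkar2b: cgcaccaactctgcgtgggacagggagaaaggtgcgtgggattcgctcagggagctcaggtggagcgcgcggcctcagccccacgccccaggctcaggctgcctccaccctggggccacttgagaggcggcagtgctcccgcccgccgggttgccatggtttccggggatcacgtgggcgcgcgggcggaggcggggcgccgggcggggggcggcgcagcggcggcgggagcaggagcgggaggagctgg
The Prkar1a window holds a full element whose first base lies at -49 relative to the start, and a neighbouring overlapping window of the same gene holds the same element. Prkar1a had 6 windows, of which only these 2 held it. The printed start lies 1544 bases downstream of the gene start in GENCODE M21. The full element was found in windows of 1 of the 7 genes, and 1.79% of all 32851 promoter windows and 2.03% of all genes in the table hold it. The core was found in 7 of the 20 windows and in 5 of the 7 genes, against 20.8% of all windows and 23.0% of all genes in the table. The shares per gene are not on equal terms, since the 7 genes had 20 windows and all 27025 genes had 32851. Prkar1a alone gave 3 of the 7 windows with the core, and 2 of these overlap. Of the 5 Prkar1b windows only the printed window held the core. The core was absent from the single Creb1 window and from both Prkar2b windows. These matches describe letters in a window and not binding.

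The main comparison asked which of the 9 genes differed between Tyrphostin and Control libraries with batch as a term. Prkar2b rose and Prkar1b fell in Tyrphostin libraries, and the other 7 did not pass the threshold (edgeR adjusted p under 0.05). All 9 passed the filter on low counts. Among all 9603 genes tested, 10.6% were called, 4.35% higher and 6.25% lower. The median log2 fold change of the 9 was 0.09, against 5.42e-05 over all genes tested. Scaling by total counts moved the median of all genes to 0.15, and the calls over all genes went from 418 higher and 600 lower to 715 higher and 396 lower.

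**Figure D1:**
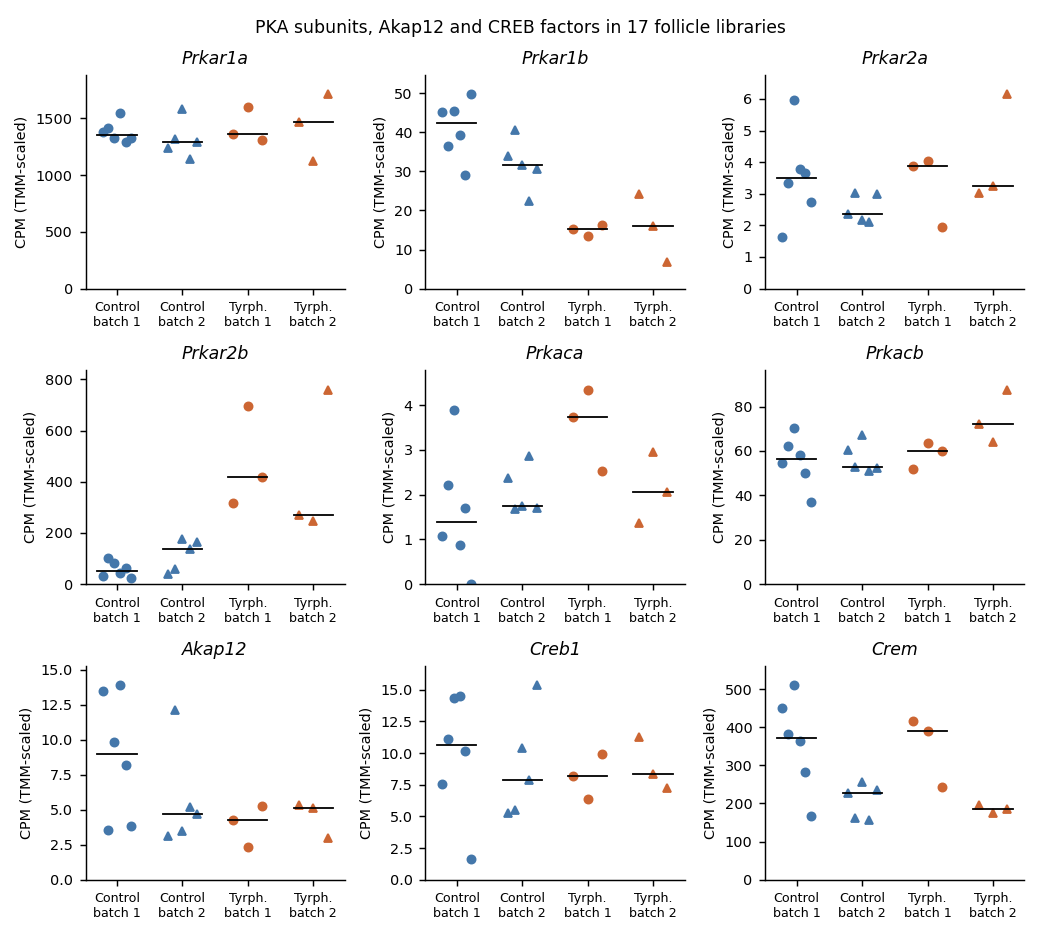
Expression of the 9 genes in each library, as TMM-scaled CPM on linear axes that start at 0. Circles are batch 1 and triangles batch 2, blue is Control and orange Tyrphostin, and the bar is the median of each group and batch. For Prkar2b every Tyrphostin library lies above every Control library.

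Prkar2b (ENSMUSG00000002997.15) lies at chr12:31958476-32061296 on the minus strand of GRCm38 (GENCODE M21), and 0 of its exonic bases are shared with another gene. It ranged from 23.5 CPM through a median of 63.2 to 174.6 in the 11 Control libraries, and from 246 CPM through 369 to 761 in the 6 Tyrphostin libraries. The groups did not overlap: 6 of 6 Tyrphostin libraries exceeded every Control library, which 0.51% of the genes tested also showed. The log2 fold change was 2.53 ± 0.38 (SE), or 5.77-fold (edgeR adjusted p = 0.000263). Within batch 1 the Tyrphostin libraries read 319, 698 and 419 CPM against a Control median of 52.8 (range 23.5 to 101.0). There the log2 fold change was 3.06 ± 0.38 (SE; edgeR adjusted p = 0.000174), in a comparison where 6.73% of genes were called (2.94% higher and 3.79% lower, 277 and 357 genes, or 459 and 264 with total-count scaling). Within batch 2 the Tyrphostin libraries read 269, 246 and 761 CPM against a Control median of 135.9 (range 37.8 to 174.6). There the log2 fold change of Prkar2b was 1.91 ± 0.53 (SE) and did not pass the threshold (edgeR adjusted p = 0.15). In this comparison 0.621% of genes were called (0.193% higher and 0.427% lower, 19 and 42 genes, or 26 and 29 with total-count scaling). DESeq2 called Prkar2b in batch 2 (adjusted p = 0.0193), and without Tyrphostin 6 the value was 1.18 (edgeR adjusted p = 0.608). The difference between the batches did not pass either (interaction -1.15 ± 0.75, SE; unadjusted edgeR p = 0.142). For the interaction, 0 of the 9 genes and 0% of all genes were called by edgeR, 0 of the 9 by DESeq2, and 0 of the 9 had an unadjusted p under 0.05.

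Control libraries also varied in Prkar2b. Sets 1 and 2 of batch 1 lay between 23.5 and 101.0 CPM. In batch 2 the libraries of set 4 (Control 7 and 8) read 37.8 and 57.7 CPM, while that of set 5 (Control 9) read 174.6 and those of set 6 (Control 10 and 11) read 135.9 and 163.3. Set 4 therefore sat inside the range of batch 1, and sets 5 and 6 sat above it. The summed theca and stroma markers stood at 2011 and 1904 CPM in Control 7 and 8 and from 402 to 1129 CPM in Control 9 to 11. In the batch 1 Controls, where Prkar2b was also low, they ran from 237 to 676 CPM. The part of such markers in the Prkar2b level was not tested. Control 7 was also the library with the lowest mitochondrial share (0.175%), and the part of that share was not tested. Without Control 7 the treatment effect on Prkar2b was 2.45 over both batches and 1.69 in batch 2. Between batches over all Control libraries the log2 difference was 1.01 ± 0.44 (SE) and did not pass (edgeR adjusted p = 0.14), in a comparison where 14% of genes were called (7.26% higher and 6.77% lower, 485 and 452 genes, or 840 and 270 with total-count scaling). When Control libraries were summed by set, the treatment effect on Prkar2b was 2.31 (edgeR adjusted p = 0.0124).

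Prkar1b, the type I beta regulatory subunit best known from brain, moved the other way. The gene (ENSMUSG00000025855.13) lies at chr5:139017306-139150001 on the minus strand. It ranged from 22.4 CPM through 36.5 to 49.8 in Control and from 6.90 CPM through 15.6 to 24.1 in Tyrphostin libraries. In 5 of 6 Tyrphostin libraries it was below every Control library, and the exception was Tyrphostin 4 at 24.1 CPM, above Control 10 at 22.4. All 6 were below in 1% of the genes tested. For counts short of 6 of 6, here and below, the share over all genes was not computed. The log2 fold change was -1.23 ± 0.21 (SE), or 2.35-fold lower (edgeR adjusted p = 0.000419). It was -1.43 ± 0.24 (SE; edgeR adjusted p = 0.00124) in batch 1 and -1.02 ± 0.36 (SE; edgeR adjusted p = 0.282) in batch 2. The batch 2 value was -0.66 without Tyrphostin 6 and -1.50 without Tyrphostin 4. The interaction was 0.42 ± 0.41 (SE; unadjusted edgeR p = 0.317). The annotation places 341 of its 3810 exonic bases (8.95%) under Gm15672 on the same strand, and how reads there were counted is not given in the sources used here.

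Prkar1a (chr11:109649405-109669656, plus strand), the type I alpha subunit that most cells express, was abundant in both groups and did not pass the threshold. It ranged from 1138 CPM through 1324 to 1578 in Control and from 1127 CPM through 1415 to 1714 in Tyrphostin libraries. The ranges overlapped, with 2 of 6 Tyrphostin libraries above every Control library (1595 and 1714 CPM) and 1 below every Control library (1127 CPM). The log2 fold change was 0.09 ± 0.14 (SE; edgeR adjusted p = 0.782). Prkar2a (chr9:108689314-108750436, plus strand), the type II alpha subunit, was near the lower end of what these libraries resolve, with 5 to 27 counts in Control and 10 to 33 in Tyrphostin libraries. It ranged from 1.62 CPM through 2.99 to 5.98 and from 1.95 CPM through 3.55 to 6.15, with wide overlap. The log2 fold change of Prkar2a was 0.29 ± 0.29 (SE; edgeR adjusted p = 0.609), and its within-batch values were -0.08 and 0.69.

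**Figure D2:**
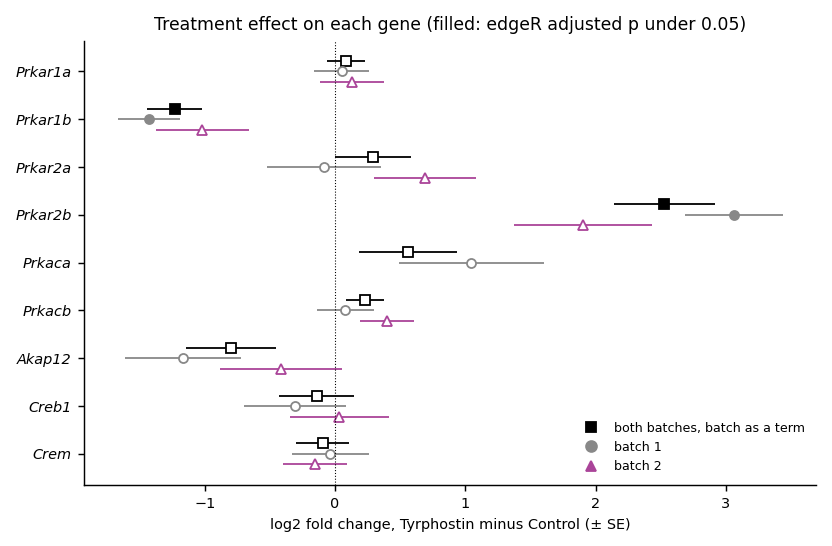
Log2 fold change (Tyrphostin minus Control) of each gene with its standard error, for both batches with batch as a term and for each batch alone. Filled symbols have an edgeR adjusted p under 0.05. Only Prkar2b and Prkar1b have filled symbols, in the joint and the batch 1 fits, and Prkaca has no batch 2 symbol because it fell under the filter on low counts there.

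Per kilobase of the longest coding transcript, Prkar1a was the leading regulatory subunit in all 17 libraries. It held a median of 91.9% of regulatory subunit transcript in Control (range 85.9 to 94.0) and 76.7% in Tyrphostin libraries (68.1 to 82.3). Prkar2b held 4.70% (1.73 to 11.3) in Control and 21.9% (15.7 to 31.4) in Tyrphostin libraries, so the groups did not overlap in this share. Prkar1b held 3.20% (2.28 to 4.69) and 1.21% (0.36 to 1.81), and Prkar2a 0.14% in either group. Since these shares combine genes already compared, they carry no test. With the median in place of the longest coding transcript length the Prkar2b shares were 4.53% and 21.8%, but those of Prkar1b became 9.41% and 3.70%.

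**Figure D3:**
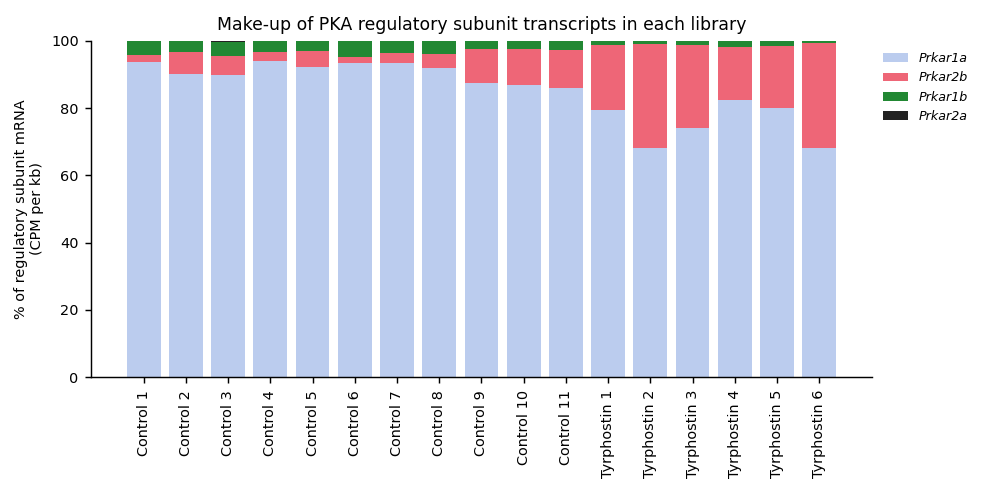
Stacked bars give each regulatory subunit as a percentage of regulatory subunit transcript (CPM per kilobase) in the 17 libraries. Prkar2b takes 1.73% to 11.3% in Control libraries, where Control 9 to 11 are the highest, and 15.7% to 31.4% in Tyrphostin libraries.

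Catalytic subunit transcript was mostly Prkacb, at a median of 94.1% per kilobase in Control and 92.2% in Tyrphostin libraries. Prkacb (chr3:146729574-146812990, minus strand) ranged from 37.2 CPM through 54.5 to 70.2 in Control and from 51.8 CPM through 63.6 to 87.7 in Tyrphostin libraries. The 2 highest values, 87.7 and 72.3, belonged to Tyrphostin 6 and 4, yet the log2 fold change of 0.23 ± 0.15 (SE) did not pass (edgeR adjusted p = 0.356). Prkaca (chr8:83972993-83996443, plus strand), the alpha catalytic subunit, ranged from 0 CPM through 1.71 to 3.89 in Control and from 1.37 CPM through 2.75 to 4.35 in Tyrphostin libraries. It had at most 15 counts in a Control and 28 in a Tyrphostin library. It was at 0 in Control 6, the shallowest library, where 3 counts would be 1.64 CPM. The log2 fold change of Prkaca was 0.56 ± 0.38 (SE; edgeR adjusted p = 0.395), which these counts could not separate from 0. The ratio of regulatory to catalytic transcript per kilobase ranged from 23.5 through 31.8 to 47.1 in Control and from 25.0 through 33.9 to 40.4 in Tyrphostin libraries, with full overlap.

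In the order of levels per kilobase in Control libraries, Prkar1a (median 377 CPM per kilobase) and Crem (87.4) stood above the rest without overlap with the next gene. Prkar2b (18.7), Prkar1b (13.8) and Prkacb (12.5) overlapped as neighbours, as did Creb1 (1.21), Akap12 (0.84), Prkaca (0.75) and Prkar2a (0.60). In Tyrphostin libraries Prkar2b (109.2) stood second, overlapping with Crem (74.9), and Prkar1b (5.93) stood behind Prkacb (14.6) without overlap. With the median coding length, Crem stood before Prkar2b and Prkar1b before Prkacb in Tyrphostin libraries, Prkar1b stood before Prkar2b in Control libraries, and the order among the 4 lowest genes changed too.

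Akap12 (chr10:4266380-4359470, plus strand) ranged from 3.15 CPM through 5.18 to 13.9 in Control and from 2.33 CPM through 4.71 to 5.35 in Tyrphostin libraries. No Tyrphostin library exceeded 5.35 CPM, but 6 of the 11 Control libraries also lay below that level. The log2 fold change was -0.80 ± 0.34 (SE) and did not pass (edgeR adjusted p = 0.154; unadjusted p = 0.0292). It was -1.17 in batch 1 and -0.41 in batch 2, and the batch 2 value was 0.11 without Control 8. At 7 to 108 counts per library this gene was thinly covered.

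Neither CREB factor passed the threshold between the groups. Creb1 (chr1:64532645-64604548, plus strand) ranged from 1.64 CPM through 10.2 to 15.4 in Control and from 6.37 CPM through 8.27 to 11.2 in Tyrphostin libraries, so the Tyrphostin values lay inside the Control range. The Creb1 log2 fold change was -0.14 ± 0.29 (SE; edgeR adjusted p = 0.826), and 0.01 with total-count scaling. Crem ranged from 156 CPM through 256 to 511 in Control and from 176 CPM through 220 to 416 in Tyrphostin libraries, again inside the Control range. The Crem log2 fold change was -0.10 ± 0.20 (SE; edgeR adjusted p = 0.831), and 0.06 with total-count scaling.

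Crem also varied between batches. In batch 1 the Control median was 373 CPM and the Tyrphostin libraries read 416, 391 and 244, and in batch 2 the Control median was 228 CPM and the Tyrphostin libraries read 195, 176 and 186. Among Control libraries the difference of batch 2 from batch 1 was -0.78 ± 0.26 (SE), just short of a call in edgeR (adjusted p = 0.0564). It passed with DESeq2 (adjusted p = 0.0169), with upper-quartile scaling (0.0415) and with no filter on low counts (0.0253). By set the Control medians were 450 and 283 CPM in sets 1 and 2 and 194, 256 and 196 in sets 4, 5 and 6. Of the 9 genes 6 were tested in this comparison, 0 were called by edgeR and 1 (Crem) by DESeq2, and 2 (Crem and Prkar2b) had an unadjusted p under 0.05. For Crem, 472 of 5895 exonic bases (8.01%) lie under Gm6225 on the opposite strand.

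The rest of the pathway was read from 7 lists with 83 genes, of which 62 were tested: 10 were called higher, 6 lower and 46 not. Over all genes tested, 4.35% were called higher and 6.25% lower. The lists were chosen with earlier results of these data known, so their counts beside these shares carry no test. The PKA inhibitor and turnover list had 1 higher and 1 lower of 4 tested, with a median log2 fold change of 0.50. Pkia, which encodes a peptide inhibitor of the catalytic subunit, ranged from 5.94 CPM through 14.0 to 21.7 in Control and from 12.7 CPM through 22.7 to 40.2 in Tyrphostin libraries. It rose by 0.81 ± 0.24 on the log2 scale (SE; edgeR adjusted p = 0.0288), with 3 of 6 Tyrphostin libraries above every Control library. It was called in 10 of 13 other fits, and not with log10 total count as a term (adjusted p = 0.0522) or Control libraries summed by set (0.0983). Leaving out Tyrphostin 2 (adjusted p = 0.0842) or Tyrphostin 5 (0.101) also ended the call. Prkx, a kinase related to the catalytic subunits, went from a median of 35.4 to 21.3 CPM, which gave -0.72 ± 0.15 on the log2 scale (SE; edgeR adjusted p = 0.00295). It was below every Control library in 4 of 6 Tyrphostin libraries. The shares of all genes with 3 of 6 above or 4 of 6 below were not computed. Pja2, the ubiquitin ligase praja2 that degrades regulatory subunits, had a value of 0.44 and Pkig of 0.55, and neither passed.

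Among 8 tested anchoring proteins other than Akap12 the median was -0.04, and 1 was called. Akap1, a mitochondrial anchor, rose by 1.40 ± 0.41 on the log2 scale (SE; edgeR adjusted p = 0.0318) at low levels, with medians of 2.67 and 7.58 CPM. It passed in 5 of 12 other fits (adjusted p = 0.0822 in limma-voom with sample quality weights), and lost its call when Tyrphostin 3 (0.108) or Tyrphostin 6 (0.112) was left out. Ezr (ezrin) at -0.68, Akap13 at -0.56 and Akap8 at -0.12 did not pass. Of the 8, 3 (Akap1, Akap13 and Ezr) had an unadjusted edgeR p under 0.05. Akap1 was not called by edgeR with no filter on low counts (adjusted p = 0.0544) or with Control libraries summed by set (0.0505). In each of these fits 1 other gene of the list was called. Among 9 tested CREB/ATF factors the median was 0.03, and 1 was called. Creb3l2, a membrane-bound factor of the secretory pathway, rose by 0.68 ± 0.19 on the log2 scale (SE; edgeR adjusted p = 0.0207), from a median of 193 to 264 CPM, and lost its call without Tyrphostin 1 (adjusted p = 0.0662) or Tyrphostin 3 (0.0595) and without the batch term (0.0829). Atf4, Creb3 and Atf1 had values of -0.13, 0.17 and -0.06.

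No gene was called among 8 coactivators and salt-inducible kinases (median -0.21) or among 9 genes of cyclic AMP production and its other effectors (median 0.03) by edgeR or DESeq2, and 1 in each list (Ep300 and Gnai3) had an unadjusted p under 0.05. With total-count scaling 1 gene of the cyclic AMP production list was called. The CREB coactivators Ep300 and Crebbp had values of -0.39 and -0.07, and Sik1 of -0.27. Gnas, which encodes the stimulatory G protein subunit, had a value of 0.03 ± 0.45 (SE), with 0.86 in batch 1 and -1.04 in batch 2. Gnai3, an inhibitory G protein subunit, had 0.38 and Gnai1 0.23. Of the adenylyl cyclases, Adcy3, Adcy6 and Adcy7 were tested, and Adcy1, Adcy2, Adcy4, Adcy5, Adcy8, Adcy9 and Adcy10 fell under the filter.

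**Figure D4:**
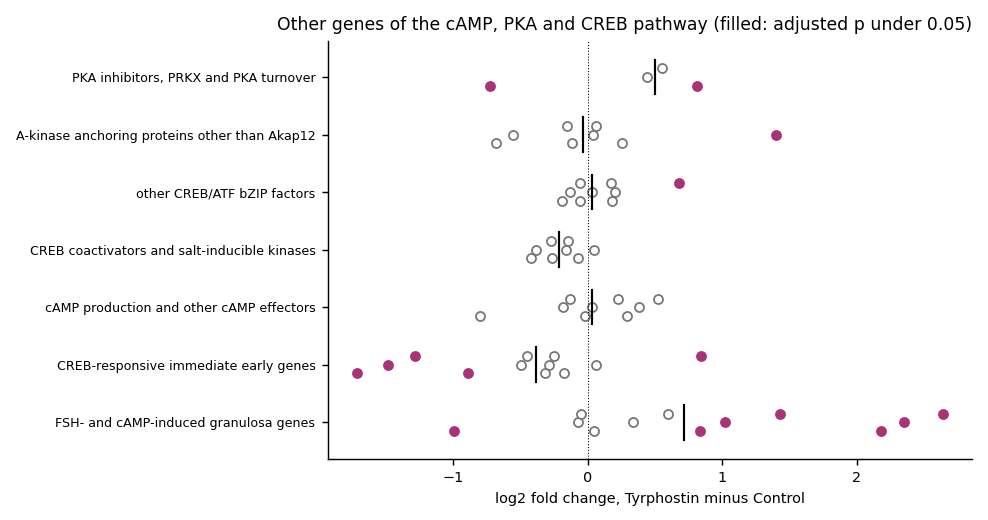
Log2 fold change (Tyrphostin minus Control) of each tested gene in 7 pathway lists, 1 point per gene, with the vertical bar at the median of the list. Filled points have an edgeR adjusted p under 0.05. Called genes are mostly in the bottom pair of lists, with values from -1.71 (Egr1) to 2.64 (Hsd17b1).

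The list of immediate early genes known to respond to CREB had 1 gene called higher and 4 lower of 12 tested, with a median of -0.39, where 4.35% of all genes tested were called higher and 6.25% lower. The genes that fell were Egr1 (-1.71 ± 0.22, SE), Junb (-1.48 ± 0.22), Per1 (-1.29 ± 0.23) and Ier2 (-0.89 ± 0.16); Egr1, Junb and Per1 encode a zinc finger factor, an AP-1 component and a clock protein. Egr1 and Junb were below every Control library in 6 of 6 Tyrphostin libraries, which 1% of all genes tested showed. Nr4a1, an orphan nuclear receptor, rose by 0.84 ± 0.22 (SE) on the log2 scale (edgeR adjusted p = 0.0159). It exceeded every Control library in 5 of 6 Tyrphostin libraries, and the share of all genes with that count was not computed. Without the batch term the edgeR adjusted p of Nr4a1 was 0.0519. Dusp1, Pde4b and Btg2 had values of 0.06, -0.49 and -0.29 and did not pass.

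The list of granulosa genes induced by FSH and cyclic AMP had 6 genes called higher and 1 lower of 12 tested, with a median of 0.72, where 4.35% of all genes tested were called higher and 6.25% lower. As this list too was chosen with earlier results known, the contrast is a description only. Without the batch term 4 of the 12 were called. Like Prkar2b, the genes Hsd17b1 (2.64 ± 0.35, SE), Cyp19a1 (2.35 ± 0.22) and Nr5a2 (2.18 ± 0.16) were above every Control library in 6 of 6 Tyrphostin libraries. Of all genes tested, 0.51% showed the same. Hsd17b1 and Cyp19a1 encode enzymes of estradiol synthesis, and Nr5a2 a nuclear receptor that activates steroid synthesis genes. Ccnd2, Lhcgr and Fshr, which encode cyclin D2 and the LH and FSH receptors, rose by 1.43, 1.02 and 0.83 on the log2 scale. Fshr lost its call without Control 1, 3 or 10 or without Tyrphostin 1, 5 or 6 (adjusted p from 0.0529 to 0.187), and was called in 9 of 13 other fits. Without the batch term the adjusted p was 0.0645 for Fshr, 0.0596 for Lhcgr and 0.0699 for Ccnd2, and with Control libraries summed by set it was 0.0824 for Fshr and 0.0512 for Lhcgr. Star, the cholesterol carrier of steroid synthesis, fell from a median of 9672 to 5616 CPM (-0.99 ± 0.26, SE; edgeR adjusted p = 0.0143), while Inha, Inhba and Gja1 did not pass. Of the granulosa markers, 3 of 6 tested (Fshr, Nr5a2 and Gata4) were called higher. The summed level of all granulosa markers ran from 62140 to 81160 CPM in Control and from 51855 to 76792 in Tyrphostin libraries. This sum is mostly Inha and Inhba, with Control medians of 44316 and 23323 CPM. Those of Fshr, Nr5a2 and Gata4 were 8.12, 43.9 and 16.0 CPM.

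The genes whose profiles over the 17 libraries were most like those of Prkar2b and Prkar1b were found by the root-mean-square difference in log2 CPM, with each gene centred on its own mean. The libraries, their depth and the treatment are shared by all profiles, so the measure is a description. Among 6305 genes, Gata4 (0.70 log2 units), St3gal5 (0.73) and Tom1l1 (0.84) were nearest to Prkar2b, where the median gene stood 1.56 away. Gata4, a transcription factor of granulosa cells, ranged from 3.77 CPM through 16.0 to 69.5 in Control and from 35.9 CPM through 80.6 to 198 in Tyrphostin libraries, so its groups overlapped. St3gal5, the ganglioside GM3 synthase, ranged from 20.8 to 34.9 and from 124 to 272 CPM, and Tom1l1, an adaptor of membrane traffic, from 10.2 to 40.8 and from 48.6 to 148 CPM, without overlap. Nearest to Prkar1b were Kctd11 (0.33), Junb (0.35) and Etv6 (0.36), against a median of 0.86. Kctd11, an adaptor of ubiquitin ligases, had medians of 20.9 and 7.29 CPM, and Etv6, an ETS repressor, of 43.5 and 20.5 CPM.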

How the data were processed

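The deposited table holds raw counts for each gene symbol in 17 libraries, which the authors made by Smart-Seq2 per the labels' protocols. The submitters' processing notes name STAR, HTSeq and GRCm38, and annotation and strand setting are not given in the sources used here. No count was found in 3576 rows, and 0 names were of the Gm type. Each of the 31 within-group, within-batch pairs was further apart than counting noise allows (chi-square over its degrees of freedom 11.8 to 84.1). Libraries are not stated to come from separate animals or cultures, so p-values measure only the spread between libraries.

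Differential expression was fitted on the whole table with edgeR 4.0.16 in R 4.3.3: filterByExpr, TMM, robust glmQLFit and quasi-likelihood F test, Benjamini-Hochberg adjustment over all genes tested, threshold 0.05. The standard error is the log2 fold change divided by the square root of F. Fits covered all libraries with batch as a term, each batch, the interaction, and Control libraries by batch. Alternatives used DESeq2 1.42.0, limma 3.58.1, other scaling, filters and terms, and each library left out. On simulated counts for the joint comparison (9388 genes) 52% of changes of 1 log2 unit and 98% of 2 were recovered, with 7 false calls. The 3-count floor covers counting error only. Lengths and positions come from GENCODE M21 (GRCm38) and promoters from RefSeq.

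The genes and lists were chosen with earlier results of these data known. Named genes were the 9 members, list genes that were called, the 3 most abundant list genes that were not, and the 3 most similar profiles (average log2 CPM at least 3) for each called member; the adenylyl cyclases were named after their values were seen.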

Additional observations from a re-analysis of the deposited data

Results flagged for a closer look

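The CPM of the 9 genes was examined for a single distant library within 3 groups each (Control of batch 1, Control of batch 2, Tyrphostin), which makes 27 groups. Chance flags about 1 in 20, or 1.35 here, and 1 group had such a library. Akap12 read 12.1 CPM (108 counts) in Control 8, against 3.15 to 5.18 CPM in the remaining batch 2 Controls. Without Control 8 the joint log2 fold change of Akap12 was -0.59 in place of -0.80 (edgeR adjusted p = 0.335), and the batch 2 value was 0.11 in place of -0.41. Control 8 also held 1904 CPM of summed theca and stroma markers, and Control 7 held 2011 CPM with an Akap12 level of 3.15 CPM. The part of these markers in the Akap12 level was not tested.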

How the results depend on the processing

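Over all libraries, Prkar2b and Prkar1b kept their direction and their call in all 15 alternatives and all 17 fits without 1 library (log2 fold change 2.21 to 2.82 and -1.49 to -1.08 over the alternatives). The values 2.82 and -1.49 came from the replicate block described below, whose treatment effect rests on batch 1 alone. The treatment comparison called 1018 genes, a count that was 478 at an adjusted p under 0.01, 450 when a change of at least 1 log2 unit was also asked for (both stricter thresholds), 619 without the batch term and 678 with log10 total count as a term; without 1 library it ran from 708 to 1314. In batch 1 the count of 634 was 282 at an adjusted p under 0.01 and 394 (without Tyrphostin 2) to 687 without 1 library. In batch 2 the count of 61 was 303 with DESeq2, 222 with no filter, 20 at an adjusted p under 0.01 and 11 (without Tyrphostin 6) to 221 (without Control 7) without 1 library. The edgeR interaction had 0 calls (342 at an unadjusted p under 0.05), 0 with DESeq2 and 79 with no filter. The Control batch difference of 937 was 1473 with DESeq2 and 343 at an adjusted p under 0.01, and 637 to 1025 without 1 library. The cause of the other shifts was not tested.

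The labels give Control and Tyrphostin 1 to 6 the same numbers. The r between deviations of same-numbered libraries was over 0.1 for 2 of 6, and 2 of 6 Tyrphostin libraries correlated best with their own number. Control 4 to 6 are of batch 1 and Tyrphostin 4 to 6 of batch 2, so these numbers could not be pairs within a batch. The numbers were not taken as pairs, and a pairing by the set number in the column names was not tested. With the number as a replicate block over Control and Tyrphostin 1 to 6 (12 libraries), with batch, 624 genes were called. In this fit the batch term takes up the differences within numbers 4 to 6. The treatment effect of the fit therefore rests on numbers 1 to 3, all of batch 1. The block gave 2.82 for Prkar2b (edgeR adjusted p = 0.00826), -1.49 for Prkar1b (0.0119), -0.048 for Prkar2a and -0.088 for Prkacb, the last pair with the sign turned. Of the called pathway genes, 4 were not called under the block: Star (adjusted p = 0.0987), Pkia (0.0990), Fshr (0.0971) and Akap1 (0.0900).

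Signs turned only for values that did not pass. With total-count scaling they were 0.0099 (Creb1), 0.059 (Crem), 0.064 (Prkar2a, batch 1), 0.13 (Crem, batch 1) and 0.12 (Prkar1a, Control batches), and 0.039 with no filter (Crem, batch 1). Without 1 library the batch 1 values ran from -0.025 to 0.12 (Prkar1a), -0.24 to 0.18 (Prkar2a), -0.0077 to 0.16 (Prkacb) and -0.18 to 0.18 (Crem). The batch 2 values ran from -0.014 to 0.27 (Prkar1a), -0.57 to 0.11 (Akap12) and -0.17 to 0.33 (Creb1). Interactions ran from -0.065 to 0.25 (Prkar1a), -0.053 to 0.77 (Prkar1b) and -0.30 to 0.047 (Crem), and the Control batch difference of Prkacb from -0.040 to 0.13. At 0 to 108 counts per library, depth limits Prkar2a, Prkaca, Akap12 and Creb1.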
